A study of Mus musculus with 61 samples.

Results

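The genes described here are 7 enzymes of cholesterol synthesis: Hmgcs1, Idi1, Fdps, Sqle, Lss, Cyp51 and Dhcr7. They were taken as a named list of sterol synthesis and uptake genes, and all 7 had a row among the 23927 gene rows of the deposited table. All 7 encode synthesis enzymes, so genes of cholesterol uptake are described from a separate pathway list. The cells came from ovaries of wild-type CD-1 mice at postnatal day 5, and each library was made from 1 cell with the SMART-seq method, which copies whole messenger RNAs. Mice had received either solvent or doxorubicin, a drug that damages DNA, by injection into the abdominal cavity 6 h earlier. There were 16 control oocytes, 16 doxorubicin oocytes, 16 control granulosa cells and 13 doxorubicin granulosa cells. The labels name no animal for any cell, so each of the 4 groups counted as 1 sample. No test between groups was possible, and no p-value is given. Intervals cover counting error only, and reads amplified without molecular identifiers are not independent molecules.

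Cells build cholesterol from acetyl units through mevalonate, isoprenoid diphosphates, squalene and lanosterol, and the genes of the pathway are switched on together by SREBP transcription factors when membrane sterol is low. In the ovarian follicle, granulosa cells surround the oocyte, and oocytes of growing follicles are known for making little cholesterol and for taking it from these neighbours. The pathway also yields farnesyl diphosphate for protein prenylation, dolichol and ubiquinone, which cells need apart from sterol.

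Of the 7 genes, 5 matched the RefSeq promoter table (build GRCm38.p6). The 150 bases before the RefSeq start site are shown for Hmgcs1, Idi1 and Lss. Idi1 and Lss are the genes at either end of the granulosa to oocyte comparison. Hmgcs1 is the one with a match to the sterol regulatory element in its window. The Idi1 and Lss windows run past the gene starts of the GENCODE loci given below, so part of each lies inside that locus. Capitals mark the searched letters on either strand: the sterol regulatory element TCACNCCAC, the NF-Y box CCAAT and the SP1 box GGGCGG. The windows lie at chr13:119690201-119690350 (plus strand) for Hmgcs1, chr13:8885456-8885605 (plus strand) for Idi1 and chr10:76531455-76531604 (plus strand) for Lss.
Hmgcs1: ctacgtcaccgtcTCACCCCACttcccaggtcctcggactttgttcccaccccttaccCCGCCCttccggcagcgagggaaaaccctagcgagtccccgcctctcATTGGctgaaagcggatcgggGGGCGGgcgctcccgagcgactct
Idi1: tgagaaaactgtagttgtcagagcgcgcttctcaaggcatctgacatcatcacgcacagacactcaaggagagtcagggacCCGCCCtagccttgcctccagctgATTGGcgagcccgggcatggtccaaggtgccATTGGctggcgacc
Lss: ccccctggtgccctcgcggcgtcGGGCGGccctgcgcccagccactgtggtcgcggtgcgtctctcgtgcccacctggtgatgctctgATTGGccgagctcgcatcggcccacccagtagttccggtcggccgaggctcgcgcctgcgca
The letters searched for the sterol regulatory element began at position -137 of Hmgcs1, counted back from the start site. They were found in 1 of the 5 matched genes. These letters occurred in 0.639% of 32851 windows of this length. Only this 1 spelling was searched, so a miss does not show that a gene lacks such an element. Each of the 5 genes held a CCAAT and a GGGCGG, letters that occurred in 24.5% and 28.6% of all windows. No matches overlapped in these genes. Dhcr7 was searched over several windows, not all of which held both, so its matches do not compare directly with shares per window. A match is a description of the letters and does not show binding.

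Counts per cell totalled 6834594 to 31262629, and levels are given as CPM, a gene's counts scaled to 1000000 counts of that cell. Checked against marker lists, oocyte markers summed to a median of 45993 CPM in control oocytes and 33527 in doxorubicin oocytes. Granulosa markers summed to a median of 4023 CPM in control granulosa libraries and 1816 in doxorubicin granulosa libraries, against 68.9 and 39.3 in the 2 oocyte groups. Granulosa libraries also held oocyte markers, with medians of 1752 CPM in controls and 9643 after doxorubicin. The granulosa sum exceeded the oocyte sum in 10 of 16 control and 5 of 13 doxorubicin granulosa libraries. The stroma sum exceeded the granulosa sum in 5 control and 2 doxorubicin granulosa libraries. In 1 doxorubicin granulosa library, cell 15, blood and immune markers summed to 33378 CPM, and 4 oocytes of each group held at least 200 CPM of granulosa markers. The libraries labelled granulosa are therefore described by their label, and ratios were also computed without the libraries that stood apart.

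Hmgcs1 (chr13:119690379-119708260, plus strand, mm10) encodes the synthase that makes HMG-CoA, from which mevalonate is formed. Across control oocytes the level ran from 52.2 to 176 CPM with the median cell at 99.7, and doxorubicin oocytes from 22.1 to 227 CPM with the median at 91.8. Granulosa cells with solvent ran from 0 to 558 CPM with a median of 83.2, and doxorubicin granulosa cells from 0.369 to 758 CPM with a median of 123. Every oocyte carried the transcript at a moderate level, whereas granulosa cells spread from 0 or near 0 CPM to well above the highest oocyte. In controls, 6 granulosa cells lay above the highest oocyte and 5 below the lowest. Pooled over cells, the oocytes stood at 106 CPM (95% exact Poisson interval 105 to 108) with solvent and 99.6 (98.1 to 101) with doxorubicin, and the granulosa cells at 154 (152 to 155) and 245 (242 to 247).

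Idi1 (chr13:8885501-8892451, plus strand) encodes the isomerase that interconverts the 2 isoprenoid building blocks. The control oocytes ranged from 3.68 to 24.8 CPM with a median of 14.8, and doxorubicin oocytes from 0 to 51.0 CPM with a median of 6.14. The control granulosa cells spread from 0 to 195 CPM with a median of 42.1, and doxorubicin granulosa cells from 0 to 167 CPM with a median of 47.0. The control granulosa cells fell apart into those with fewer than 5 counts and those above the oocytes. Whether low counts mean absence or transcripts missed in making the library was not tested, for this gene or the others. In controls, 9 of 16 granulosa cells lay above the highest oocyte and the other 7 below the lowest.

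Fdps (chr3:89093588-89101959, minus strand) encodes farnesyl diphosphate synthase, at the branch between sterols and the other isoprenoids. Control oocytes ran from 179 to 421 CPM with a median of 275, and doxorubicin oocytes from 176 to 448 CPM with a median of 329. Control granulosa cells ran from 0 to 726 CPM with a median of 229, and doxorubicin granulosa cells from 0.412 to 667 CPM with a median of 320. The pooled levels were close in all 4 groups, at 279, 310, 275 and 293 CPM in that order. Fdps was found in 14 of 16 control and in all 13 doxorubicin granulosa cells, where found means at least 5 counts in the cell.

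**Figure D1:**
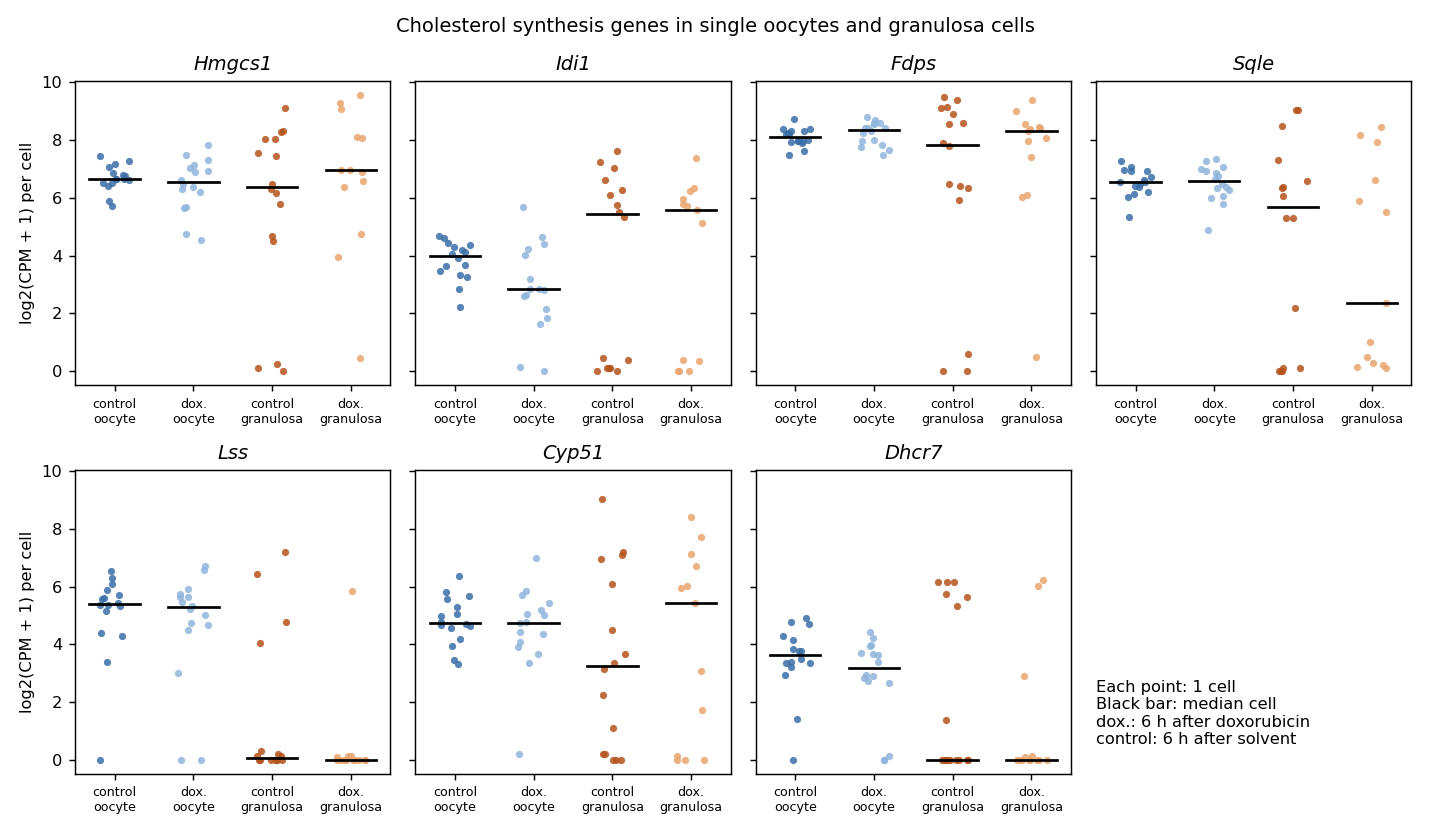
Level of each of the 7 genes in each cell, as log2(CPM + 1) on the vertical axis, by group on the horizontal axis; points are cells and black bars the median cell. Control granulosa cells span a wider range than control oocytes for each gene, and for Idi1 9 of 16 control granulosa cells lie above the highest control oocyte and 7 below the lowest.

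Sqle (chr15:59315077-59331192, plus strand) encodes squalene epoxidase, the first oxygen-requiring step and a point of control of the pathway. Across control oocytes the level ran from 39.9 to 152 CPM with a median of 92.0, and doxorubicin oocytes from 28.3 to 160 CPM with a median of 94.0. Granulosa cells with solvent ran from 0 to 532 CPM with a median of 52.5, and doxorubicin granulosa cells from 0.0824 to 351 CPM with a median of 4.16. The pooled levels hid this spread: they were 98.5 and 97.2 CPM in the 2 oocyte groups and 125 and 89.4 CPM in control and doxorubicin granulosa cells. In controls, 4 granulosa cells lay above the highest oocyte and 8 below the lowest.

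Lss (chr10:76531588-76557138, plus strand) encodes lanosterol synthase, which closes the sterol rings. The control oocytes ranged from 0 to 93.1 CPM with a median of 41.1, and doxorubicin oocytes from 0 to 103 CPM with a median of 37.9. The control granulosa cells spread from 0 to 146 CPM with a median of 0.046, and doxorubicin granulosa cells from 0 to 56.2 CPM with a median of 0. Lss was thus found in nearly every oocyte and in few granulosa cells. It was found in 15 of 16 oocytes with solvent (93.8%) and 14 of 16 with doxorubicin (87.5%). Among granulosa cells it was found in 4 of 16 with solvent (25%) and 1 of 13 with doxorubicin (7.69%). That 1 cell, doxorubicin granulosa cell 13, held 99.6% of the group's 672 Lss counts, and the other 12 cells held 3 counts between them. Its stroma markers summed to 7961 CPM and its granulosa markers to 1259 CPM, and whether this bears on its Lss was not tested.

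Cyp51 (chr5:4081145-4104746, minus strand) encodes the lanosterol demethylase, whose product is a sterol known to activate meiosis. Control oocytes ran from 8.97 to 82.2 CPM with a median of 25.5, and doxorubicin oocytes from 0.163 to 127 CPM with a median of 25.9. Control granulosa cells ran from 0 to 519 CPM with a median of 8.62, and doxorubicin granulosa cells from 0 to 339 CPM with a median of 42.6. A single control granulosa cell, cell 4, held 49.4% of its group's Cyp51 counts.

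Dhcr7 (chr7:143823145-143848410, plus strand) encodes the reductase of the final step to cholesterol. Across control oocytes the level ran from 0 to 28.9 CPM with a median of 11.5, and doxorubicin oocytes from 0 to 20.7 CPM with a median of 8.11. Granulosa cells with solvent ran from 0 to 70.2 CPM and doxorubicin granulosa cells from 0 to 73.5 CPM, with a median of 0 in both. It was found in 15 and 13 of the 16 oocytes with solvent and drug, and in 7 of 16 and 3 of 13 granulosa cells. In controls, 6 of the 16 granulosa cells lay above the highest oocyte, while 1 that carried it was at 1.58 CPM.

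Levels of different genes were compared per kilobase of each gene's longest GENCODE M21 transcript. In control oocytes the order of pooled level was Fdps at 94.4 CPM per kilobase, Hmgcs1 at 30.6, Sqle at 22.1, Cyp51 at 8.71, Lss at 6.46, Dhcr7 at 5.24 and Idi1 at 4.38. In control granulosa cells Fdps was again first, at 93.3 CPM per kilobase, followed by Hmgcs1 at 44.3 and Sqle at 28.0. Cyp51 and Idi1 came next, both at 17.1, then Dhcr7 at 8.12 and Lss at 2.25. The 3 most abundant genes kept their order in both control groups, and Idi1 and Lss took the other's place near the end. Ranges of Lss and Dhcr7 both began at 0 in control oocytes and so overlapped, as did those of all 7 genes in control granulosa cells. Exons of Hmgcs1 share 557 of 4594 bases with an antisense gene, and those of Cyp51 share 166 of 4415 bases with Akap9 on the other strand. Both of these partners had a gene row. Exons of Fdps share 1124 of 4208 bases with Gm43738, a protein-coding gene on the same strand without a row. Those of Idi1 share 323 of 3505 bases and those of Lss 381 of 10787 with genes on the other strand, also without a row. No source used here states that strand was used in counting, so reads from these stretches cannot be told apart, and processed copies elsewhere in the genome were not searched for.

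**Figure D2:**
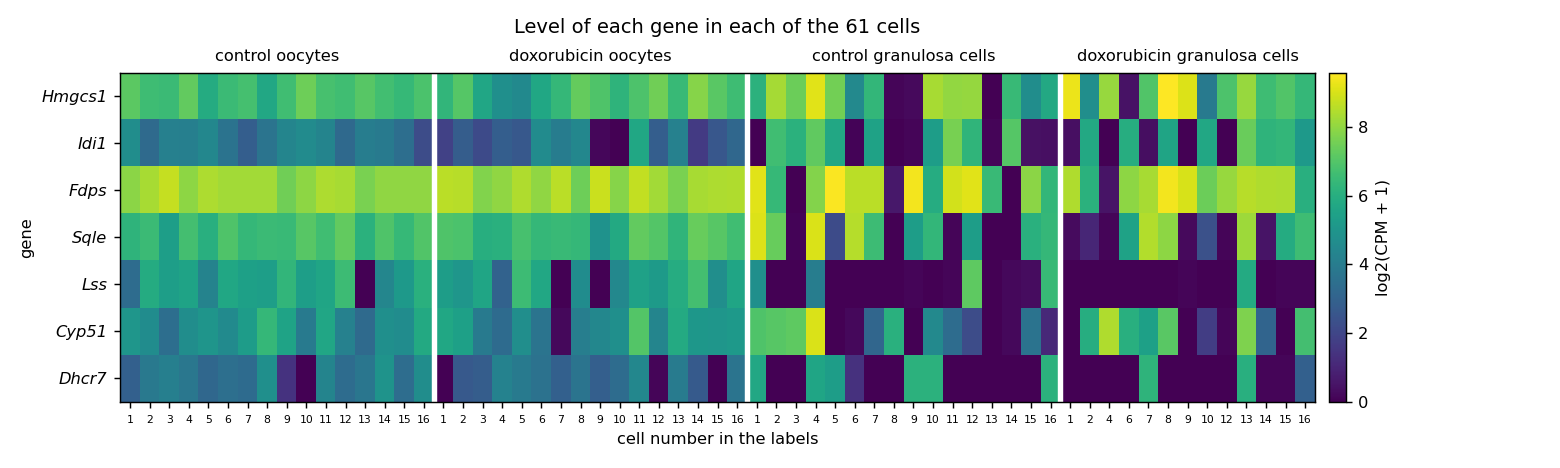
Level of each of the 7 genes (rows) in each of the 61 cells (columns, numbered as in the labels), coloured by log2(CPM + 1), with white lines between the groups. All 7 genes are found in 14 control and 10 doxorubicin oocytes, but in only 1 control granulosa cell (cell 4) and 1 doxorubicin granulosa cell (cell 13).

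The completeness of the set was counted per cell. Control oocytes held 6 to 7 of the genes with a median of 7, and doxorubicin oocytes 5 to 7 with a median of 7. Control granulosa cells held 1 to 7 with a median of 4.5, and doxorubicin granulosa cells 2 to 7 with a median of 5. With every cell thinned to 1000000 counts, and a gene found from 1 count, the medians were 7, 7, 4.5 and 4. The summed level did not show the same difference: its median was 602 CPM and 619 CPM in the oocytes with solvent and drug, and 682 CPM and 594 CPM in the granulosa cells. The range was wide in granulosa cells, from 67.1 to 2034 CPM in controls and from 210 to 1858 CPM after doxorubicin, against 437 to 699 and 386 to 926 CPM in oocytes.

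In granulosa cells and control oocytes a spread of this size was also seen in genes of like level. These were genes at 4.70 to 310 CPM in all 4 groups, a wide range, and they were not matched gene by gene. The median coefficient of variation of the 7 genes was 0.42 in control oocytes and 1.37 in control granulosa cells, and 7500 genes of like level had medians of 0.42 and 1.43. After doxorubicin the values for the 7 genes were 0.70 in oocytes and 1.38 in granulosa cells, against 0.48 and 1.41 for the genes of like level. The median gene of the 7 was found in 68.8% of control and 69.2% of doxorubicin granulosa cells, against 62.5% and 61.5% for genes of like level.

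The 7 genes did not move as a block from cell to cell. Over the 21 pairs of genes the median Spearman correlation was 0.02 for 16 oocytes with solvent, 0.12 for 16 with doxorubicin, and 0.19 in either granulosa group (16 and 13 cells). These are descriptions of values that share a library in each cell. The highest pair was Sqle with Lss in control oocytes, at 0.54, and Hmgcs1 with Idi1 in control granulosa cells, at 0.79. The latter pair stood at -0.33 in doxorubicin granulosa cells, the lowest of that group. In control granulosa cells the summed level had a Spearman correlation of -0.54 with the oocyte marker sum and -0.66 with the stroma marker sum. In doxorubicin granulosa cells it was 0.71 with the stroma sum, and the number of genes found was at -0.71 with the oocyte sum. The part of these markers in the levels was not tested.

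The first comparison set granulosa cells against oocytes in solvent-treated mice. CPM are shares of a cell's counts, not amounts per cell, and no transfer of cholesterol was measured. Pooled over cells, Idi1 was 3.90-fold higher in granulosa cells, Cyp51 1.97-fold, Dhcr7 1.55-fold, Hmgcs1 1.45-fold and Sqle 1.27-fold higher, Fdps was level and Lss was 2.87-fold lower. As log2 ratios with 95% exact counting intervals, Idi1 stood at 1.96 (1.90 to 2.03), Cyp51 at 0.97 (0.93 to 1.02), Hmgcs1 at 0.53 (0.51 to 0.56), Fdps at -0.02 (-0.03 to 0.00) and Lss at -1.52 (-1.58 to -1.46). With a difference of at least 2-fold as the rule, for genes that reached 5 CPM on one side or the other, 1 of the 7 genes was higher (Idi1) and 1 lower (Lss), with Cyp51 just short. Over 12373 genes, 31.3% were at least 2-fold higher in granulosa cells and 29% at least 2-fold lower. The median log2 ratio of the 7 genes was 0.53 and that of all genes 0.03, with quartiles at -1.26 and 1.44.

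The direction depended on whether cells were pooled or the median cell was taken. On the difference of median log2(CPM + 1), Sqle stood at -0.84, Cyp51 at -1.47, Dhcr7 at -3.63, Hmgcs1 at -0.26 and Lss at -5.33, and Idi1 alone of the 7 was higher in granulosa cells, at 1.44. A few granulosa cells with many counts thus set the pooled levels of Sqle and Cyp51. For Dhcr7, 9 of 16 control granulosa cells held no counts, and the top cell held 22.6% of the group's counts. Leaving out cell 4 of the control granulosa group brought the log2 ratio of Cyp51 to 0.09, and leaving out cell 12 brought Lss to -2.33. In libraries with few transcripts of the other type (oocytes under 200 CPM of granulosa markers, granulosa cells with more granulosa than oocyte markers, 12 and 10 cells), Idi1 stood at 2.13, Fdps at 0.60 and Lss at -1.55.

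After doxorubicin, Idi1 was 4.27-fold, Cyp51 2.58-fold and Hmgcs1 2.46-fold higher in granulosa cells than in oocytes, and Lss was 8.45-fold lower. The log2 ratios were 2.09 (2.02 to 2.17), 1.37 (1.32 to 1.41), 1.30 (1.27 to 1.32) and -3.08 (-3.19 to -2.96). Dhcr7 stood at 0.40, Fdps at -0.08 and Sqle at -0.12. So 3 of the 7 genes were at least 2-fold higher and 1 lower, where 28.2% of 12428 genes were higher and 27.6% lower. Leaving out doxorubicin granulosa cell 8 brought Hmgcs1 to 0.95 and leaving out cell 4 brought Cyp51 to 0.85, both under 2-fold. By median cells Hmgcs1 stood at 0.42 and Cyp51 at 0.70, also under 2-fold. Without cell 7, Dhcr7 was at -0.48, and by median cells it was at -3.17 and Sqle at -4.20. Lss was lower in granulosa cells by median cells too, at -5.28, and in every version with 1 cell left out, but its size rested on doxorubicin granulosa cell 13, without which the log2 ratio was -10.76 on 3 counts. Libraries with few transcripts of the other type were 12 doxorubicin oocytes and 5 doxorubicin granulosa cells. Among them Idi1 stood at 3.08, Cyp51 at 1.84, Hmgcs1 at 1.62 and Lss at -1.91. Dhcr7 stood at 0.71, Sqle at 0.54 and Fdps at 0.30 in these libraries. The comparisons with solvent and with doxorubicin share no cell.

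**Figure D3:**
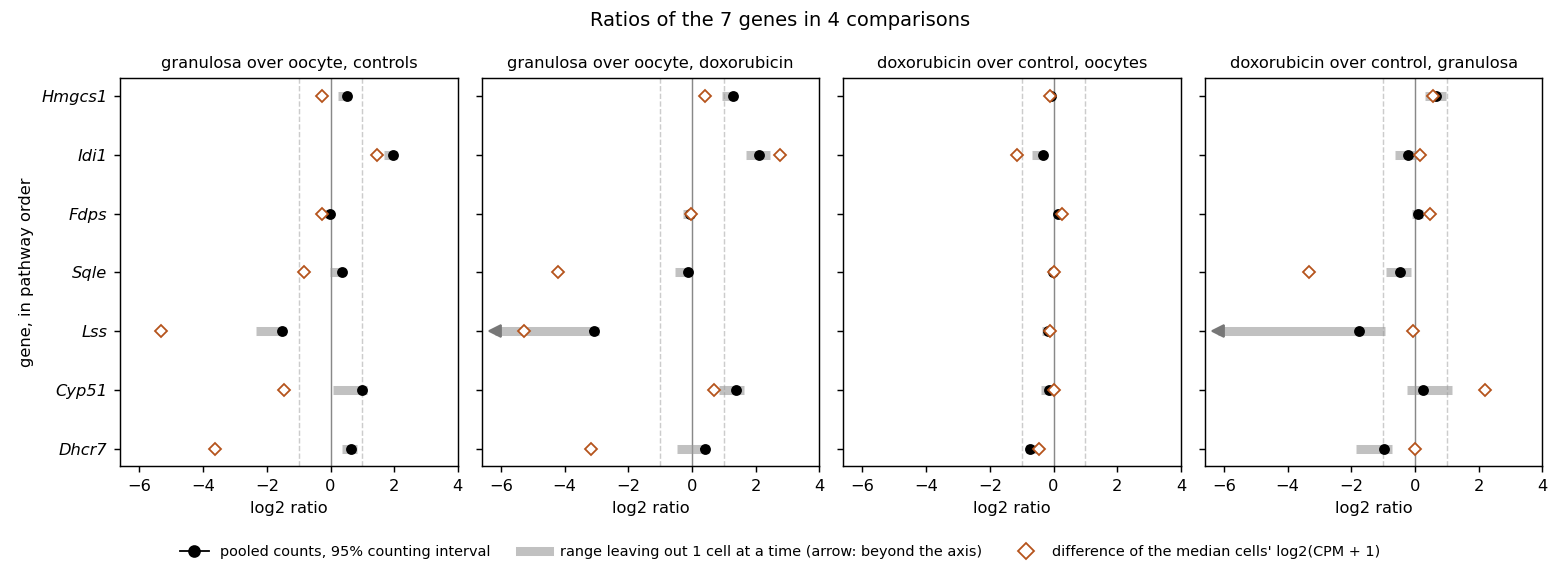
Log2 ratio of each gene (rows, in pathway order) in the 4 comparisons (panels); black points are pooled counts with 95% counting intervals, grey bars the range on leaving out 1 cell at a time, diamonds the difference of median cells, dashed lines 2-fold. Idi1 lies right of the 2-fold line in both granulosa to oocyte panels by both measures, Lss lies left, and all 7 pooled points of the oocyte drug panel lie within 2-fold.

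In oocytes, none of the 7 genes differed by 2-fold between doxorubicin and control at 6 h. The log2 ratios of doxorubicin over control were -0.09 for Hmgcs1, -0.34 for Idi1, 0.15 for Fdps, -0.02 for Sqle, -0.19 for Lss, -0.13 for Cyp51 and -0.73 (-0.82 to -0.64) for Dhcr7. The pooled level of Dhcr7 was 14.8 CPM with solvent and 8.88 CPM with the drug, and the ranges of the cells overlapped. Over 11119 genes, 6.3% were at least 2-fold higher and 2.45% at least 2-fold lower, and the median log2 ratio was 0.01 against -0.13 for the 7 genes. Idi1 had the widest gap between measures, at -1.15 by median cells, with 5 of 16 doxorubicin oocytes below the lowest control oocyte and 1 above the highest. That 1, doxorubicin oocyte 11, was also the highest doxorubicin oocyte for Cyp51 and Dhcr7 and held 2661 CPM of granulosa markers. Without it the ratio of Idi1 was -0.69 and that of Cyp51 -0.40. Among the oocytes under 200 CPM of granulosa markers, 12 in each group, Idi1 stood at -0.43, Cyp51 at -0.42 and Dhcr7 at -0.72.

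In granulosa cells, doxorubicin libraries had Hmgcs1 1.59-fold higher, with a log2 ratio of 0.67 (0.65 to 0.69), and Lss 3.35-fold lower, at -1.75 (-1.87 to -1.62). Dhcr7 stood at -0.97, just inside 2-fold, Sqle at -0.49, Idi1 at -0.22, Fdps at 0.09 and Cyp51 at 0.26. None of the 7 genes was at least 2-fold higher and 1 was lower, where 20.6% of 12194 genes were higher and 20% lower. Every gene but Hmgcs1 and Dhcr7 had its doxorubicin granulosa cells within the range of the controls, and for these genes 2 cells and 1 cell lay above the highest control. Hmgcs1 kept its direction on leaving out any cell, from 0.33 to 0.96, and by median cells, at 0.56. The size of the Lss ratio rested on 1 cell in each group: without control granulosa cell 12 it stood at -0.93 and without doxorubicin granulosa cell 13 at -9.43. By median cells, both near 0 CPM, it stood at -0.06. By median cells Sqle stood at -3.33 and Cyp51 at 2.18, both past 2-fold. Pooled, Cyp51 ranged from -0.25 without doxorubicin cell 4 to 1.15 without control cell 4, and Dhcr7 stood at -1.85 without doxorubicin cell 7.

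The oocyte markers differed between these groups, and 16 of the 16 used markers were at least 2-fold higher in doxorubicin than in control granulosa libraries. Among granulosa libraries with more granulosa than oocyte markers, 10 control and 5 doxorubicin cells, Hmgcs1 stood at 0.65, Idi1 at 0.51, Lss at -0.42 and Dhcr7 at -0.997, on the 2-fold line. The part of the oocyte markers in the other values was not tested.

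The other genes of the pathway set the 7 in context. The full list held 21 synthesis enzymes, of which 4 were at least 2-fold higher and 5 lower in granulosa cells of the solvent groups, with a median log2 ratio of 0.04, where 31.3% and 29% of all genes were higher and lower. After doxorubicin the counts were 4 higher and 6 lower, where the shares of all genes were 28.2% and 27.6%. Fdft1, the squalene synthase that acts between Fdps and Sqle, had ranges that did not overlap between the control groups. The control oocytes ranged from 947 to 1393 CPM with a median of 1183, and control granulosa cells from 0.243 to 609 CPM with a median of 88.2, and all 16 granulosa cells lay below the lowest oocyte. Its log2 ratio of granulosa over oocyte was -2.76 in controls and -1.97 after doxorubicin. Mvd, the decarboxylase that ends the mevalonate steps, stood at -2.27 in controls, with group levels of 16.4 CPM in granulosa cells and 78.9 CPM in oocytes. It was found in 3 of 16 control granulosa cells, and without control granulosa cell 10 the ratio was -3.24.

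Msmo1, the methyl sterol oxidase that acts downstream of Cyp51, went the other way. Its group level was 11.2 CPM in control oocytes and 139 CPM in control granulosa cells, a log2 ratio of 3.64 (3.57 to 3.70), with 9 granulosa cells above the highest oocyte. After doxorubicin the levels were 31.1 CPM in oocytes and 49.2 CPM in granulosa cells. Ebp, the sterol isomerase of the late steps, was chosen after its values were seen. It stood at 1.69 CPM in control oocytes, where 7 of 16 cells held at least 5 counts, and at 58.7 CPM in control granulosa cells, a log2 ratio of 5.12 (4.96 to 5.28). The values after doxorubicin were 2.16 and 48.3 CPM. Of the 21 enzymes, Ebp was the only one whose group level in control oocytes lay under 5 CPM.

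**Figure D4:**
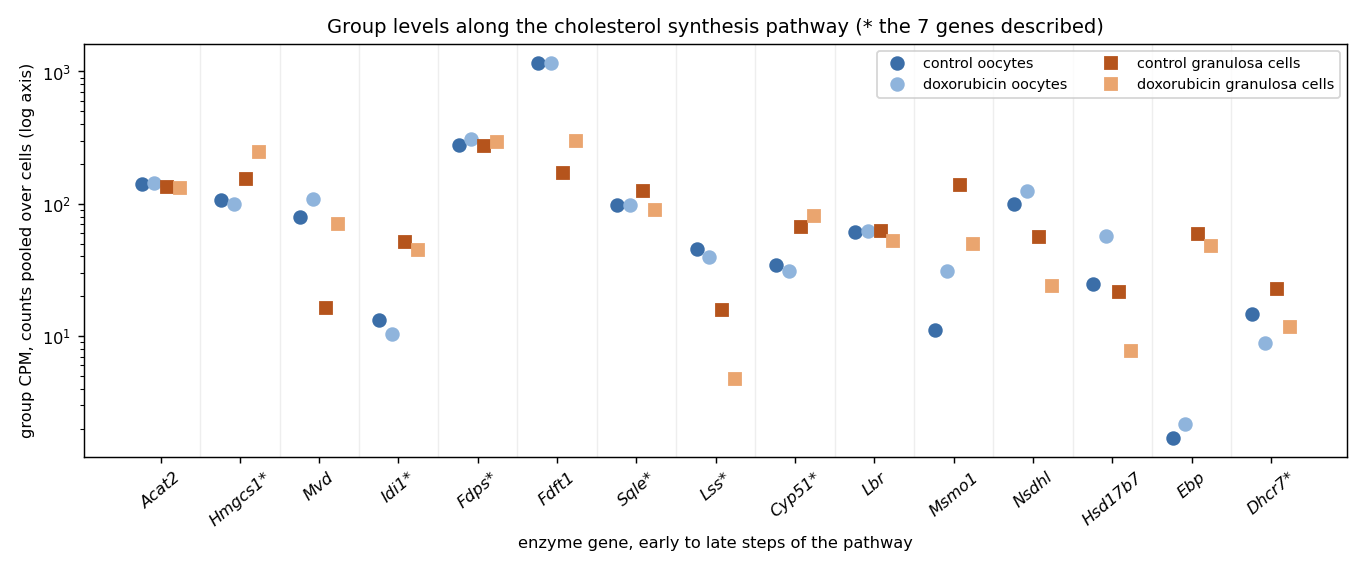
Group level of 15 synthesis enzymes, early to late steps from left to right, as CPM of pooled counts on a log axis; circles are oocytes, squares granulosa cells, dark control and light doxorubicin, and stars mark the 7 genes described. Points are to be compared within a gene: the control oocytes lie above the control granulosa cells for Fdft1, at 1162 and 172 CPM, and below them for Ebp, at 1.69 and 58.7 CPM.

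With doxorubicin, 2 of 20 used synthesis enzymes were at least 2-fold higher in oocytes and none lower, where 6.3% and 2.45% of all genes were. These were Msmo1, at a log2 ratio of 1.48 (1.40 to 1.55), and Hsd17b7, a reductase of the late steps that was chosen after its values were seen. Hsd17b7 ran from 0 to 58.0 CPM with a median of 21.4 in control oocytes and from 2.52 to 97.1 CPM with a median of 55.6 in doxorubicin oocytes, and 7 of 16 doxorubicin oocytes lay above the highest control. Its log2 ratio was 1.21 (1.16 to 1.26) and lay between 1.11 and 1.29 on leaving out each cell. Msmo1 lay between 1.23 and 1.63 in the same way, with 5 of 16 doxorubicin oocytes above the highest control. Pooled granulosa markers were also higher in doxorubicin oocytes, with 5 of 8 used markers at least 2-fold higher and a median log2 ratio of 1.93. Among oocytes under 200 CPM of granulosa markers, Msmo1 stood at 1.49 and Hsd17b7 at 1.18. In granulosa cells 1 of 21 enzymes was at least 2-fold higher after doxorubicin and 6 lower, where 20.6% and 20% of all genes were. The lower ones included Lss at -1.75, Msmo1 at -1.50 and Nsdhl at -1.22. Nsdhl stood at -0.52 without control granulosa cell 8 and at -0.10 by median cells.

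For uptake and transport within the cell, 7 of 13 listed genes were at least 2-fold higher in granulosa cells under solvent and 2 lower, with a median log2 ratio of 1.09, against 31.3% and 29% of all genes. Lrp1, a large endocytic receptor for lipoproteins, stood at 8.11 CPM in oocytes and 210 CPM in granulosa cells (log2 ratio 4.69), with 12 of 16 granulosa cells above the highest oocyte. Npc2, which carries cholesterol out of lysosomes, stood at 69.7 and 154 CPM (1.14), and at 0.92 without control granulosa cell 14. Stard3, a sterol carrier of late endosomes, stood pooled at 68.7 and 70.3 CPM (0.03), but at -5.95 by median cells. After doxorubicin 6 of 13 were higher and 3 lower in granulosa cells than in oocytes, against 28.2% and 27.6% of all genes. The drug comparison gave 2 higher and 2 lower of 12 in oocytes and 0 higher and 3 lower of 12 in granulosa cells, beside shares of all genes of 6.3% and 2.45% for the former cell type, 20.6% and 20% for the latter.

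Among the 7 genes that control SREBP, 2 were at least 2-fold higher in granulosa cells and 3 lower, again under solvent and against 31.3% and 29% of all genes. Insig1, a sterol-dependent brake that holds SREBP in the endoplasmic reticulum and is itself an SREBP target, differed most of them. Control oocytes ran from 75.5 to 223 CPM with a median of 127, and control granulosa cells from 0 to 32.6 CPM with a median of 0.146, with no overlap. The log2 ratio was -5.32 (-5.44 to -5.21). Doxorubicin granulosa cells ran from 0 to 202 CPM with a median of 2.29, and the ratio to control granulosa cells was 3.43 (3.31 to 3.56), between 2.91 and 4.98 on leaving out each cell. Among libraries with more granulosa than oocyte markers it was 5.09. Srebf2, the SREBP gene known for cholesterol synthesis, stood at 34.6 CPM in control oocytes and 70.0 CPM in control granulosa cells (1.02), but at -1.88 by median cells. Mbtps1 of the same list stood at 117 and 378 CPM (1.69), and at 1.71 by median cells. Scap stood at 251 and 100 CPM (-1.33), and at -3.09 by median cells.

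Genes that followed the mean log2(CPM + 1) of the 7 genes across cells were ranked by Pearson correlation, which also reflects what the cells share, such as library quality. Over all 61 cells the 5 closest were Wdr3 at 0.77, Rrp8 at 0.76, Sirt2 at 0.76, Tpp2 and Dhx29 both at 0.75. In the 16 control oocytes they were Optn at 0.87, Zscan26, Afmid, Srgn and Ulk4, and those of the 16 control granulosa cells included Unc119 at 0.86, Extl3, Jmjd1c and Ccnd3. The 3 lists shared no gene.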

How the data were processed

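RNA was measured in 61 single-cell libraries, and the deposited values are estimated counts for each gene row in each cell, not all of them whole numbers. Per the submitters' processing notes, Partek, Bowtie2, HISAT2, DESeq2 and the mm10 build were used, with no role or version given. The counting tool and annotation are not given in the sources used here. The labels put all cells in batch 1. Estimated counts were rounded to whole numbers, divided by the cell's total over gene rows and given as CPM. Depth was 6834594 to 31262629 counts per cell. Groups came from the cell titles. Cells were pooled by summing counts per group, with exact Poisson intervals for levels and exact conditional binomial (Clopper-Pearson) intervals at 95% for ratios, because no animal is named and each group is 1 sample. A gene was used at 5 CPM or more in either group, and a difference of 2-fold was called higher or lower. All 7 genes passed this in each comparison. The 22 gene rows turned into dates by a spreadsheet were left out of the rankings of like genes. The dose is not given because its unit in the labels is not a unit of dose. The raw data of doxorubicin oocyte 4 are stated to be lost, and its column was kept.

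The 7 genes and the pathway lists were chosen with earlier results of these data known. All 7 genes were named, and up to 4 genes of each pathway list, those with the highest summed CPM, with any others marked as chosen after their values were seen. Some genes counted in these lists, among them some that this rule picks, are not reported by name. The alternatives tried were equal-weight means of cells, median cells with a pseudocount of 1, edgeR 4.0.16 TMM factors, DESeq2 1.42.0 size factors, no filter or 20 CPM, leaving out each cell, leaving out doxorubicin oocyte 4, and keeping cells with few transcripts of other types. Scripts (Python 3.11.15, numpy 2.4.6, scipy 1.17.1) were tested on simulated data. Loci and lengths came from GENCODE M21.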

Additional observations from a re-analysis of the deposited data

Results flagged for a closer look

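Among the 7 genes and the pathway genes named by the rule, 4 had pooled drug ratios of opposite direction in oocytes and granulosa cells. With all cells in, the counting interval did not reach equal levels in either cell type. On leaving out each cell in turn only the direction was required to hold. The log2 ratio of doxorubicin over control was -0.092 in oocytes and 0.67 in granulosa cells for Hmgcs1. Without doxorubicin oocyte 5 the oocyte ratio of Hmgcs1 was -0.0040, close to equal levels. For Insig1 the values were -0.15 in oocytes and 3.43 in granulosa cells, but 0.0079 in oocytes by median cells. Msmo1 was higher in doxorubicin oocytes, at 1.48, and lower in doxorubicin granulosa cells, at -1.50. Nsdhl, an enzyme of the late steps, stood at 0.32 in oocytes and -1.22 in granulosa cells, and at -0.10 there by median cells. Msmo1 also differed by over 2-fold each way, which the others did not. The rule set no least size for a ratio, and the share of all genes that meet it was not counted. In oocytes the ratios of Hmgcs1 and Insig1 lay between the quartiles of all genes, -0.24 and 0.25. The differences between the cell types were not tested, since each group is 1 sample.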

How the results depend on the processing

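No paired analysis was possible because each group is 1 sample without a test, and the cell numbers shared by the groups only name cells. Results below are the numbers of the 7 genes at least 2-fold higher or lower and their median log2 ratio, and no alternative turned a called ratio round. Median cells in place of pooled counts moved most. For granulosa over oocyte they gave 3 genes lower and a median of -0.84 in controls, and 1 higher, 3 lower and -0.040 after doxorubicin. For doxorubicin over control they gave 1 lower in oocytes, and 1 higher and 0.16 in granulosa cells. Equal-weight means gave 2 higher and 0.50 for granulosa over oocyte in controls, -0.058 for the drug in oocytes and -0.29 in granulosa cells. DESeq2 size factors gave 0.48 in controls. Cells with few transcripts of the other type gave medians of 0.75 in controls, 0.71 after doxorubicin and -0.23 for the drug in oocytes, and 0 genes lower for the drug in granulosa cells. The stricter version, chosen after the data were seen, which also left out cells rich in stroma or blood markers, gave 0.74 in controls, 2 lower after doxorubicin, -0.24 for the drug in oocytes, and 2 lower and -0.13 in granulosa cells, where 3 doxorubicin cells were kept. Without doxorubicin oocyte 4, whose raw data were lost, the medians were 0.51 after doxorubicin and -0.055 for the drug in oocytes. On leaving out each cell in turn, granulosa over oocyte had 1 to 2 genes higher, 1 lower and a median of 0.087 to 0.64 in controls, and 2 to 3 higher, 1 lower and -0.12 to 0.53 after doxorubicin. The drug comparison had 0 higher, 0 lower and -0.21 to -0.051 in oocytes, and 0 to 1 higher, 1 to 2 lower and -0.63 to 0.067 in granulosa cells. In all, 337 of these values moved little and 107 moved. The cause was not tested. Counting intervals show what depth allows and do not cover the spread between cells or animals.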

Other observations

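In the list for storage and efflux of cholesterol, 4 of 7 used genes were at least 2-fold higher and 1 lower in the granulosa cells of solvent-treated mice relative to their oocytes, where 31.3% and 29% of all genes were. Soat1, which makes cholesterol esters for storage, ran from 43.7 to 2168 CPM with a median of 317 in control granulosa cells and from 5.93 to 172 CPM with a median of 50.8 in control oocytes. Its log2 ratio was 3.31 (3.28 to 3.33) in controls and 3.21 (3.18 to 3.24) after doxorubicin, and 12 of 16 control granulosa cells lay above the highest control oocyte. Abca1, the pump that loads cholesterol onto lipoprotein particles, stood at 49.4 CPM in control oocytes and 43.8 CPM in control granulosa cells. Nr1h2, a sterol-sensing nuclear receptor, was lower in control granulosa cells, at -1.46.

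For steroid synthesis, Hsd3b1, a dehydrogenase of steroid hormone synthesis, stood at 49.4 CPM in control oocytes and 1801 CPM in control granulosa cells, with a median granulosa cell at 490 CPM. In doxorubicin granulosa cells the median was 0.831 CPM and the group level 758 CPM. On leaving out doxorubicin granulosa cell 8 the log2 ratio of doxorubicin over control moved from -1.25 to -3.19. Among granulosa libraries with more granulosa than oocyte markers it was -0.60. In the stricter version, which kept 3 doxorubicin granulosa cells, it was -0.17. The part of other cells' transcripts in this ratio was not tested. Of 7 genes of the isoprenoid branches, 1 was at least 2-fold higher and 2 lower in control granulosa cells relative to oocytes. The shares of all genes were 31.3% and 29%. Dhdds, which makes the carrier lipid dolichol, was lower, at -1.96 and at -3.15 without control granulosa cell 8. Coq2, of ubiquinone synthesis, was higher, at 1.29. Fnta and Ggps1 of the same list stood at 0.40 and 0.23.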
